A study of Mus musculus with 6 samples.

Results

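The genes described here are 8 that carry a death signal from the cell surface or the mitochondria to the caspases: the receptors Fas and Tnfrsf10b, the adaptor Fadd, the inhibitor Cflar, the initiator caspases Casp8 and Casp9, the scaffold Apaf1 and the effector caspase Casp6. They were chosen by symbol, and all 8 were found among 23366 listed genes and passed the filter that left 12820 genes for testing (a mean normalized count of at least 10). The cells were SC4, a mouse Schwann cell line from a schwannoma that lacks Nf2, the gene for merlin, a growth suppressor that acts upstream of YAP. All libraries thus share the loss of Nf2 and come from a single line. They had received either control siRNA or an siRNA pool directed at Yap1, the gene of the transcriptional co-activator YAP, and RNA was taken 48 hours later for 3 libraries of each kind. Whether each library is a culture of its own is not stated, so a p-value here reflects variation among libraries that could be technical.

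In the extrinsic route to apoptosis, a ligand such as FasL or TRAIL clusters its receptor on the cell surface. The receptor then binds the adaptor FADD, which brings procaspase-8 molecules together so that they activate each other. cFLIP, the product of Cflar, resembles caspase-8 and competes with it at this complex. In the intrinsic route, cytochrome c from mitochondria makes APAF1 assemble into the apoptosome, which activates caspase-9. Both routes end in effector caspases that cleave cell proteins.

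The libraries held between 18025132 and 60078880 recovered reads. Replicate 1 stood apart from replicates 2 and 3 in both groups, as described under the processing, and for 6 of the 8 genes the average log2 difference between replicate 1 and the other replicates was larger than that between the siRNAs. Yap1, the targeted gene, had 4749.6, 5732 and 4751 normalized counts (gene counts over a size factor) in control replicates 1, 2 and 3 and 936, 571 and 475 after YAP siRNA. Its log2 differences in the pairs of equal replicate number were −2.34, −3.32 and −3.32, and the groups did not overlap. Of 15 Schwann cell markers, 11 had a mean of at least 10, but Sox10, S100b and Gfap were among those that did not, and the summed level of the 15 was 22108 to 28239 normalized counts in the controls and 21686 to 36142 after YAP siRNA. The summed level of 7 fibroblast markers was 274859 to 572471 normalized counts in the controls and 221935 to 431484 after YAP siRNA. These sums rest on few genes. The collagen genes Col1a1, Col1a2 and Col3a1 had control means of 212139, 188451 and 53944. The fibroblast markers Thy1, Dcn and Lum had control means of 109, 143 and 1.38. In the Schwann cell list Ncam1 had the highest control mean, 14694. Sums for 6 leukocyte markers were 284 to 343 and 215 to 262, and for 5 endothelial markers 161 to 262 and 229 to 347. The part of other cell types in the results below was not tested.

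With replicate numbers blocked, 1 member passed the test, Fas, which was higher after YAP siRNA, and the other 7 did not pass. In limma without a block 0 of the 8 passed an adjusted p of 0.05, where 0.0% of all tested genes did. At an unadjusted p under 0.05 there was 1 member, Fas (12.2% of all genes), edgeR called 0, and DESeq2 called 1, Fas (5.63% of all genes). Once replicate numbers were blocked, limma called 1 member of 8 (17.3% of all genes). It was higher, as were 8.32% of all genes, and 0 members were lower, against 8.96%. At an unadjusted p under 0.05 the blocked fit had 5 members, where 34.4% of all genes passed. Without the block the adjusted p of the 7 members other than Fas lay between 0.556 and 0.984 in limma. Below, "rose" and "fell" are used of genes that passed in the blocked limma fit. Its pairing of replicate numbers comes from a check of these data and not from a label, as described under the processing. In bulk RNA, fewer cells that express a gene and less RNA per cell cannot be told apart.

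**Figure D1:**
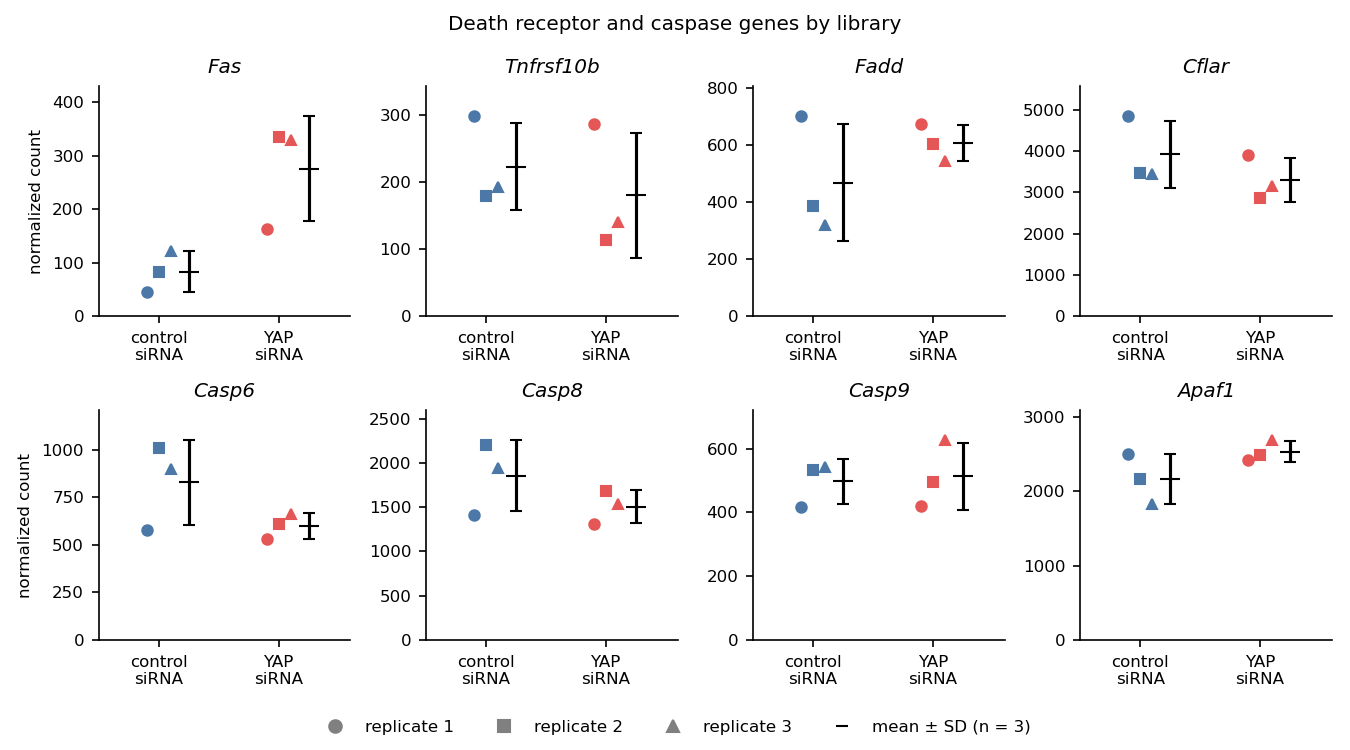
Normalized counts (y axis, from 0) of the 8 genes in each library, by siRNA. Symbols give the replicate number and the bars the mean ± SD of 3 libraries. The Fas values after YAP siRNA, from 162 to 335, all lie above the control values, from 44.0 to 121, whereas the groups overlap for the other 7 genes.

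Fas encodes CD95, the receptor for FasL, and is a known p53 target gene. It had 44.0, 82.6 and 121 normalized counts in control replicates 1, 2 and 3, and 162, 335 and 330.0 after YAP siRNA. The lowest library with YAP siRNA was above the highest control, and in both groups replicate 1 was the lowest. These values rest on 29, 106 and 263 reads in the controls and 135, 332 and 219 after YAP siRNA.

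The Fas mean went from 82.6 ± 38.6 to 276 ± 98.3 normalized counts (SD, n = 3), 3.34 times the control mean. On the log2(value + 1) scale used throughout, the difference was 1.77 (95% interval 1.28 to 2.26, adjusted p = 0.00237 in the blocked limma fit). In the unblocked limma fit its interval was 0.63 to 2.91 and its adjusted p 0.241. By exact two-sided permutation of the libraries p was 0.1, as low as 3 against 3 can go. The log2 differences of the pairs were 1.86, 2.01 and 1.44. Fas passed in 12 of the 13 blocked settings and in 2 of the 17 unblocked ones that were run. The blocked exception was limma without a mean-variance trend, with an adjusted p of 0.0632, a setting in which 0.234% of all genes passed. Fas was the 1 member whose groups did not overlap. Over all genes this held for 19.0%, and for 9.47% with the YAP siRNA group higher.

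The promoter of Fas is shown because Fas was the member that rose. RefSeq places it, on GRCm38.p6, at chr19:34290409-34290708 on the plus strand, from 250 bases before to 50 bases after the start of the gene. The files use another build, mm9. The capitals mark the match to TGANTCA, the AP-1 motif, at position 40 of the stretch.

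Fas promoter: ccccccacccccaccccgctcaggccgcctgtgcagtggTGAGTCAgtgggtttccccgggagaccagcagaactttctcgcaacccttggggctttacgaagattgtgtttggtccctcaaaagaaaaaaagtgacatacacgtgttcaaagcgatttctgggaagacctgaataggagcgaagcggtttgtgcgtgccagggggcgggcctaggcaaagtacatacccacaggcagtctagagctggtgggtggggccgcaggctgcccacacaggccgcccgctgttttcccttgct

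The motif of TEAD factors, the DNA-binding partners of YAP, was searched for as GGAATG on both strands, and the AP-1 motif, which reads the same on both strands, as TGANTCA. Of the 8 genes, 7 had a promoter in the table; Tnfrsf10b had no entry. GGAATG was found in 0 of the 7 and in 14.7% of 32851 promoters of the same length. TGANTCA was found in 1 of the 7, that of Fas, and in 7.81% of all promoters. A match is a stretch of letters only, and binding was not measured.

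Tnfrsf10b encodes the mouse death receptor for TRAIL. Its normalized counts were 299, 179 and 192 in the controls and 287, 114 and 140.2 after YAP siRNA. It was lower in each pair, by log2 differences of −0.057, −0.65 and −0.45, but replicate 1 with YAP siRNA exceeded control replicates 2 and 3, so the groups overlapped. The mean log2 difference was −0.39, blocked 95% interval −0.84 to 0.064 (adjusted p in limma 0.204 when blocked, 0.801 when not). The receptors thus had differences of opposite sign, 1.77 and −0.39, and only that of Fas passed.

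Fadd, the adaptor that links death receptors to caspase-8, had 703, 386 and 318 normalized counts in the controls and 673, 603 and 546 after YAP siRNA. Replicates 2 and 3 were higher with YAP siRNA, by 0.64 and 0.78 on the log2 scale, while the pair of replicate 1 had a difference of −0.062. The mean difference was 0.45 (95% interval 0.042 to 0.86, adjusted p = 0.116 in the blocked limma fit). The control SD of 205 was larger than that after YAP siRNA, 63.9 (n = 3 for each), since control replicate 1 stood at 2.00 times the mean of the other controls.

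Cflar encodes cFLIP, the inhibitor of caspase-8 activation. Its normalized counts were 4851, 3460.2 and 3444 in the controls and 3901, 2857 and 3148 after YAP siRNA. All pairs were lower, by log2 differences of −0.31, −0.28 and −0.13, and the groups overlapped because replicate 1 was high in both. The mean difference was −0.24 (95% interval −0.44 to −0.036, adjusted p = 0.0974 in the blocked limma fit).

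Casp8, the initiator caspase of the receptor complex, had 1416, 2207 and 1946 normalized counts in the controls and 1313, 1678 and 1531 after YAP siRNA. It was lower in each pair, least in that of replicate 1 (−0.11, against −0.39 and −0.35 on the log2 scale). The mean difference was −0.28 (95% interval −0.52 to −0.044, adjusted p = 0.0957 in the blocked limma fit). In the reference gene order Casp8 and Cflar are next to each other on chromosome 1, on the same strand, and both had negative differences of similar size that did not pass.

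Casp6, an effector caspase, had 578, 1007 and 899.9 normalized counts in the controls and 529, 612 and 665 after YAP siRNA. The values after YAP siRNA lay close together (SD 68.4), and those of control replicates 2 and 3 were above them all, but control replicate 1 was not. The log2 differences were −0.13, −0.72 and −0.44 in pairs 1, 2 and 3, with a mean of −0.43 (95% interval −0.76 to −0.099, adjusted p = 0.0746 in the blocked limma fit). Of the 7 members that did not pass, Casp6 had the lowest adjusted p.

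For the intrinsic route neither gene passed. Apaf1, the scaffold of the apoptosome, had 2502, 2164 and 1833 normalized counts in the controls and 2428, 2487 and 2692 after YAP siRNA, a mean log2 difference of 0.24 (95% interval −0.044 to 0.52, adjusted p = 0.212 in the blocked limma fit). The pair of replicate 1 was at −0.043 and that of replicate 3 at 0.55. Casp9, the caspase that the apoptosome activates, had 416, 532 and 543 in the controls and 419.5, 494 and 627 after YAP siRNA. Its log2 difference of 0.038 (95% interval −0.27 to 0.35, adjusted p = 0.868 in the blocked limma fit) was the smallest of the 8, and the sign changed when control replicate 1 (−0.085) or YAP siRNA replicate 3 (−0.12) was left out.

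**Figure D2:**
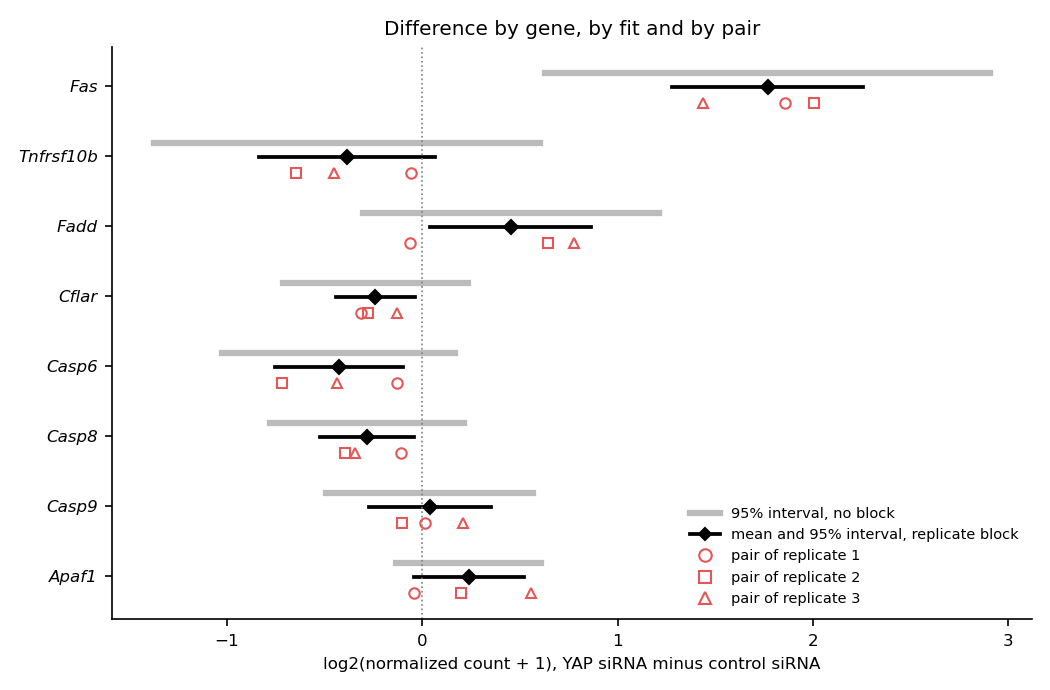
Difference in log2(normalized count + 1), YAP siRNA minus control siRNA (x axis), for each gene. Grey bars give the 95% interval without the block, black diamonds and bars the mean and interval with the replicate block, and open symbols the 3 pairs. The pairs of Fas lie from 1.44 to 2.01, while those of Fadd, Casp9 and Apaf1 lie on both sides of 0.

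By direction, 1 member was higher in 3 of 3 pairs, where 27.4% of all tested genes were, and 4 were lower in 3 of 3 pairs (Tnfrsf10b, Cflar, Casp6 and Casp8), where 27.1% of all genes were. Over all genes 54.5% had 1 direction in 3 of 3 pairs, and 5 of the 8 members did. The median log2 difference of the 8 was −0.10, beside 0.0094 over all tested genes. Over the 8 genes the exact two-sided permutation p ran from 0.1 (Fas) to 0.9 (Casp9).

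The size of the differences varied among the pairs, and not alike for all members. In the pair of replicate 1 the log2 differences of Tnfrsf10b, Fadd, Casp6, Casp8 and Apaf1 were between −0.13 and −0.043, smaller in size than in both other pairs. Fas had 1.86 there, between its other values, and Cflar had its largest difference there, −0.31 against −0.28 and −0.13. Whether the pairs differ was not tested, since each is a single pair. With replicate 1 left out of both groups, an alternative without the block that was added after the data were seen, 5 of the 8 members passed in limma, where 31.3% of all genes did. They were Fas (limma adjusted p = 9.06e-04), Casp6 (limma adjusted p = 0.00952), Fadd (limma adjusted p = 0.0103), Apaf1 (limma adjusted p = 0.0310) and Casp8 (limma adjusted p = 0.0314). With the block 6 passed, Tnfrsf10b being added (limma adjusted p = 0.0456), where 43.7% of all genes did. Of these 3 were higher and 3 lower, against 21.9% and 21.8% of all genes. In that fit the log2 differences were 0.71 for Fadd, −0.58 for Casp6, −0.55 for Tnfrsf10b, 0.38 for Apaf1 and −0.37 for Casp8. With few libraries left, such p-values rest largely on variance borrowed from other genes.

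Levels can be compared between genes only per length. Normalized counts per kilobase were taken over the longest coding transcript of each gene in GENCODE M21, between 1456 nt for Casp6 and 6577 nt for Apaf1. In the controls the mean levels per kilobase were 718 for Casp8, 596 for Cflar and 569 for Casp6, and the ranges of these genes overlapped. Apaf1 followed at 329, with a range of 279 to 380.5 that lay below all of them. Casp9, Fadd, Tnfrsf10b and Fas came last, at 128, 120.1, 70.3 and 55.8, each overlapping the next. After YAP siRNA the mean level per kilobase of Fas was 186, with a range of 109.6 to 226. Its place in the order of means went from 8 to 5, above Fadd (156) and Casp9 (132), whose ranges overlapped its own. Tnfrsf10b was then the lowest at 56.8, with a range of 35.9 to 90.4 below that of Fas.

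The 3' UTRs of the members were searched for CTACATA, a 7-base sequence whose carriers were lower as a class in an earlier look at these data, so that the class value is no independent support. Of 11539 tested genes with a 3' UTR of at least 50 nt, 10.2% carried it. Their median log2 difference was −0.059, against 0.014 in the others. Carriers had longer 3' UTRs, with a median of 2738 nt against 1107 nt. Of the 8 members 4 carried it: Tnfrsf10b, Fadd, Casp6 and Casp8. All sites found in the members are shown. Of the 4 carriers, 3 (Tnfrsf10b, Casp6 and Casp8) had negative differences in all pairs, where 27.1% of all tested genes did. Fadd, with 2 sites, had a positive mean difference. None of the 4 passed in the blocked fit, and whether a site bears on these differences was not tested. Fas, Cflar, Casp9 and Apaf1 had no site, and the differences of Cflar were negative in all pairs as well. The capitals mark the 7 bases, and positions count from 1 at the first base of the 3' UTR in GENCODE M21.

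Tnfrsf10b, positions 1735 to 1741: attcccagcagCTACATAgtggctcacaa
Fadd, positions 522 to 528: cctgggcctacCTACATAtagtggctcac
Fadd, positions 941 to 947: gacagcctagcCTACATAgagaacactaa
Casp6, positions 18 to 24: catctgtcttgCTACATAtatttcacaca
Casp8, positions 447 to 453: gccaacctgctCTACATAgcaagttctga

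The other genes of these pathways were described through 7 lists with 65 entries, of which 59 were tested. With the block 6 rose and 7 fell, against 8.32% and 8.96% of all genes, and without it 0 passed. At an unadjusted p under 0.05 in limma without the block there were 10 of the 59, where 12.2% of all genes passed. The median log2 difference of the 59 was −0.026, beside 0.0094 over all genes. With the block, 28 passed without replicate 1, 8 without replicate 3 and 1, Tnfrsf12a, without replicate 2 of both groups. The shares of all genes that passed were 43.7%, 8.8% and 2.34%.

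**Figure D3:**
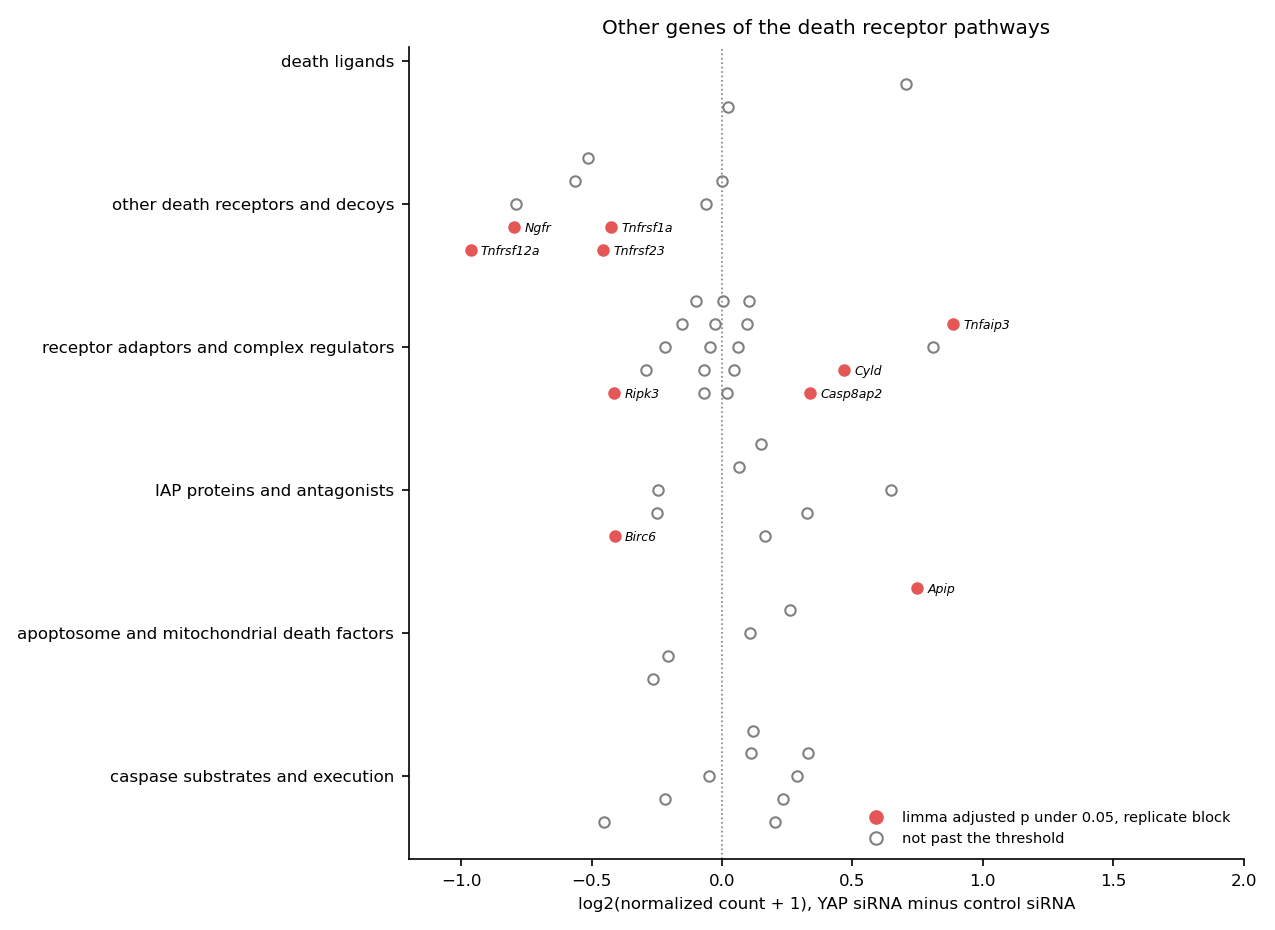
Difference in log2(normalized count + 1), YAP siRNA minus control siRNA (x axis), for each tested gene of 6 of the 7 pathway lists (y axis, without the other caspases; points are spread vertically for legibility). Filled points passed limma with the replicate block. The 4 filled receptors lie below 0, from −0.96 to −0.42, and the filled genes of the adaptor list lie on both sides of 0.

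Of 6 ligand genes 2, Tnfsf12 and Tnfsf15, were tested, and 0 passed with the block, where 17.3% of all genes did. The other 4 had means under 10. Fasl had 2 reads in control replicate 2 and 0 in every other library, and Tnfsf10, which encodes TRAIL, had 1 and 2 reads in control replicates 2 and 3 and 0 elsewhere. Tnf had 0 to 6 reads in a library and Lta 0 to 15. Tnfsf12, which encodes TWEAK, was detected in every library, with 266, 223 and 316 normalized counts in the controls and 272, 261 and 277 after YAP siRNA, groups that overlapped. Tnfsf15, a ligand of the receptor Tnfrsf25, had the smaller p, with normalized counts of 13.7, 21.8 and 27.6 in the controls and 12.0, 70.6 and 43.7 after YAP siRNA (blocked limma, adjusted p = 0.309). The transcripts of the ligands of both member receptors were thus at or near 0 in every library.

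In the list of other death receptors and decoys 0 rose and 4 fell of 9 tested, against 8.32% and 8.96% of all genes. The list includes Tnfrsf12a, which is counted here although it is neither a death receptor nor a decoy. The median log2 difference of the 9 was −0.52. Tnfrsf12a, which encodes Fn14, the receptor of TWEAK, had 1983, 8451 and 12416 normalized counts in the controls and 1339, 4663 and 4489 after YAP siRNA. It fell by 0.96 on the log2 scale (SE 0.153, blocked limma, adjusted p = 0.00630), and was lower in each pair although the groups overlapped. Ngfr, the p75 neurotrophin receptor and a marker of Schwann cells, fell by 0.80 (blocked limma, adjusted p = 0.00721). Its groups overlapped, with 4621, 2036 and 1790 normalized counts in the controls and 3486, 1051 and 876 after YAP siRNA. Without replicate 2 of both groups Ngfr did not pass (blocked limma, adjusted p = 0.0723). Of the 11 Schwann cell markers tested, Ngfr was the 1 that fell, and 2 rose (Pmp22 by 1.00 and Erbb3 by 1.12). The median log2 difference of the 11 markers was 0.20. The TNF receptor gene Tnfrsf1a fell by 0.42, from 3782 ± 587 to 2812 ± 372 normalized counts (SD, n = 3; blocked limma, adjusted p = 0.0293). Tnfrsf23, a mouse decoy receptor for TRAIL named here because it completes the count, fell by 0.46 on the log2 scale (blocked limma, adjusted p = 0.0373). For Tnfrsf1a and Tnfrsf23 the groups overlapped. Neither passed in blocked limma without replicate 2 (adjusted p = 0.120 and 0.245) or without replicate 3 (adjusted p = 0.201 and 0.211).

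Among receptor adaptors and regulators of their complexes 3 rose and 1 fell of 19 tested, against 8.32% and 8.96% of all genes. The median log2 difference of the 19 was 0.0038. Tnfaip3, which encodes the ubiquitin-editing enzyme A20, had 285, 431 and 408 normalized counts in the controls and 416, 948 and 806 after YAP siRNA. Its log2 difference was 0.89 (SE 0.156, blocked limma, adjusted p = 0.00865). Cyld, a deubiquitinase that acts on RIPK1 complexes, rose by 0.47 on the log2 scale (blocked limma, adjusted p = 0.0179). Ripk3, the kinase of necroptosis, fell by 0.41 (blocked limma, adjusted p = 0.0301). Casp8ap2, which encodes FLASH and completes the count, rose by 0.34 (blocked limma, adjusted p = 0.0429). The groups overlapped for Tnfaip3 and Cyld. Without replicate 2 of both groups, Tnfaip3, Cyld, Ripk3 and Casp8ap2 did not pass (blocked limma, adjusted p = 0.111, 0.129, 0.293 and 0.305). Cyld, Ripk3 and Casp8ap2 also did not pass without replicate 3 (blocked limma, adjusted p = 0.103, 0.128 and 0.264).

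Of the other caspases, Casp14, a caspase of the epidermis, rose from 1, 2 and 6 reads in the controls to 10, 47 and 14 reads, counts that limit the precision of its fold.

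Among inhibitor of apoptosis proteins and their antagonists 0 rose and 1 fell of 8 tested, against 8.32% and 8.96% of all genes. Birc6, a large inhibitor that is also a ubiquitin-conjugating enzyme, fell from 14322 ± 777 to 10771 ± 736 normalized counts (SD, n = 3), with groups that did not overlap (blocked limma, adjusted p = 0.0123). In the list of apoptosome and mitochondrial factors, against the same shares of all genes, 0 fell and 1 rose of 5 tested. This was Apip, an enzyme of methionine salvage whose product binds APAF1, with 334, 345 and 400.4 normalized counts in the controls and 620.3, 631 and 561 after YAP siRNA (blocked limma, adjusted p = 0.0128). Of 9 caspase substrates and execution genes 0 passed with the block, where 17.3% of all genes did. The one with the smallest p was Dfna5, which encodes gasdermin E, at −0.45 on the log2 scale (blocked limma, adjusted p = 0.0616).

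The adapters were directional per the labels, but whether the counting used strand is not given in the sources used here. For this reason the nearest protein-coding gene on each side of each member was looked up in GENCODE M21. Of 14 neighbours that are no members, 12 were tested, and 0 passed without the block. With it 2 rose and 3 fell, against 8.32% and 8.96% of all genes. On one side of Fas lies Acta2, the smooth muscle actin gene, on the opposite strand and with no overlap of the genes. Acta2 had 62.2, 28.8 and 73.7 normalized counts in the controls and 85.3, 566 and 830.4 after YAP siRNA, so that it was high in replicates 2 and 3 with YAP siRNA only, a log2 difference of 2.72 (blocked limma, adjusted p = 0.0185). Without replicate 2 of both groups Acta2 did not pass (blocked limma, adjusted p = 0.104). Ch25h, the cholesterol 25-hydroxylase gene on the other side of Fas, had 7.59, 18.7 and 12.4 in the controls and 21.6, 29.3 and 48.2 after YAP siRNA (blocked limma, adjusted p = 0.0849). Apaf1 and Ikbip, a gene on the opposite strand beside it, do not overlap in the annotation, and Ikbip rose by 0.47 on the log2 scale (blocked limma, adjusted p = 0.00977). The genes that fell were Pla2g12a beside Casp6, Dnajc16 beside Casp9 and Ano1 beside Fadd, with log2 differences of −0.54, −0.67 and −0.80.

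**Figure D4:**
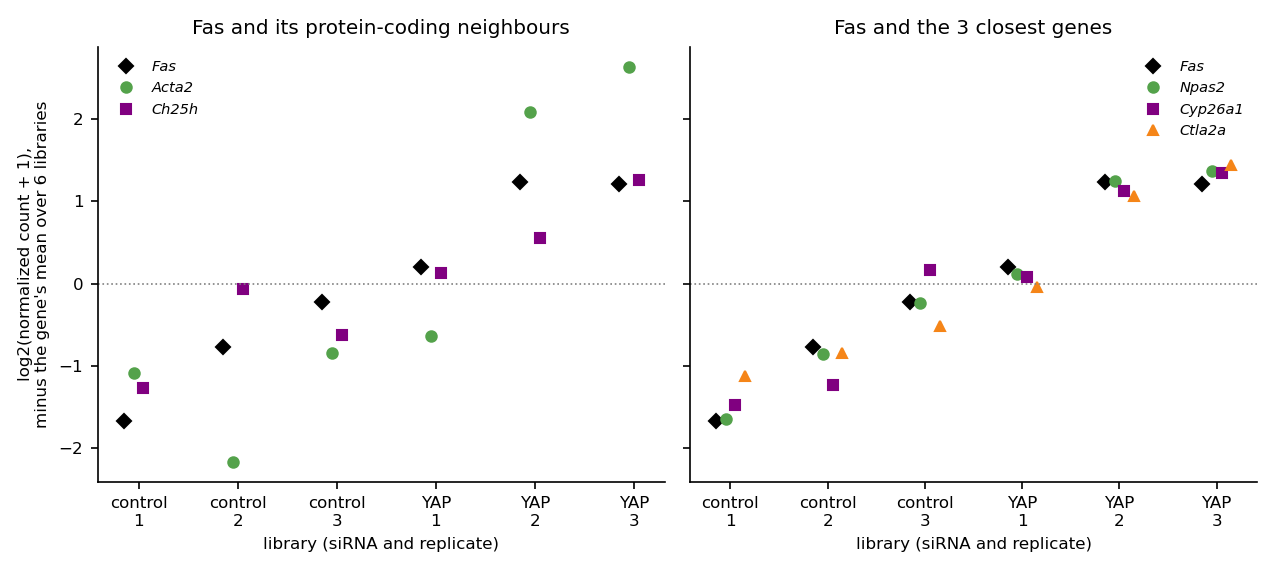
Values of log2(normalized count + 1) in each library, minus the mean of the gene over the 6 libraries (y axis), for Fas with its protein-coding neighbours (left) and with the 3 genes closest to it (right). Control libraries are on the left of each panel. Fas and Npas2 lie at nearly the same height in each library, whereas Acta2 in YAP siRNA replicate 1, at 85.3 normalized counts, stays near its control values.

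The genes whose pattern over the 6 libraries was most like that of Fas were found among 11224 others with a mean of at least 50, by the Euclidean distance of centred log2 values. Npas2, a circadian transcription factor gene, was closest at a distance of 0.19. It had 37.9, 66.3 and 102 normalized counts in the controls and 131, 287 and 312 after YAP siRNA, and like Fas it was lowest in replicate 1 of either group. Cyp26a1, which encodes an enzyme that degrades retinoic acid, followed at 0.66 and Ctla2a, a protease inhibitor gene, at 0.72. With 6 libraries that share the replicate structure, such closeness describes these libraries only.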

How the data were processed

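RNA was measured in 6 libraries. The submitters' processing notes name mm9 as the build and, as tools, DESeq 1.14.0, HTSeq 0.6.1 and TopHat2 2.0.9. The annotation, the strand setting and the counting of reads shared with paralogues were not given in the sources used here. In the table deposited by the authors each value is a signal: the count of a gene over the size factor of its library. All values above 0 were whole multiples, within 0.01 reads, of the value of 1 read (100% in each library), so reads were recovered for edgeR and DESeq2.

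Here limma 3.58.1 (R 4.3.3) was run on log2(value + 1), two-sided, with a mean-variance trend and no covariate. Genes whose mean was under 10 were left out before Benjamini-Hochberg adjustment. The other design, set in advance, had the replicate number as a block. Same-numbered libraries of the groups deviated together from their group means (correlations across genes 0.788, 0.705 and 0.532), so the numbers were taken to pair them. This comes from that check and not from a label. Replicates 2 and 3 also correlated crosswise (0.552 and 0.516), so mainly replicate 1 is told apart. All library pairs within groups differed beyond counting noise (lowest chi-square per degree of freedom 8.04).

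Alternatives used edgeR 4.0.16, DESeq2 1.42.0, other pseudocounts, filters, scalings and variance models, and left-out libraries. Scripts were tested on simulated data. The genes and lists were chosen with earlier results of these data known. Named beside the 8 genes are, in each list, up to 3 genes with the smallest p that passed with the block, or 1 where none passed, neighbours, and the 3 genes most like Fas; Tnfrsf23, Casp8ap2, the ligands other than Tnfsf15 and neighbours of members other than Fas were named after their values were seen. Sequences come from RefSeq (GRCm38.p6) and GENCODE M21, another build than mm9. Some genes that the rule names are not reported here.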

Additional observations from a re-analysis of the deposited data

How the results depend on the processing

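Without the block, 0 genes and 0 members passed in limma under any pseudocount, filter, scaling or variance model, or in edgeR. DESeq2 called 722 genes, among them 1 member. With the replicate block limma called 2216 genes and 1 member, Fas. The blocked count was 2190 and 2235 with pseudocounts of 0.5 and 10, 2137 without a filter, 2152 with a mean of at least 50, 2252 after rescaling to one total, 2349 after quantile normalization, 2479 in edgeR and 2490 in DESeq2, with 1 member in each. Limma without a trend called 30 genes and 0 members with the block, and the cause was not tested. Leaving out libraries gave 0 to 5596 genes and 0 to 6 members (300 genes with the block without replicate 2 and 1128 without replicate 3). The lowest count above 0 was 8 genes, without YAP siRNA replicate 1, and without control replicate 1 it was 497; without replicate 1 of both groups and without the block it was 4018 genes, 5 members and 20 pathway genes. Of the pathway genes 13 passed with the block, 0 without it or with the block and no trend, and 0 to 28 with libraries left out. Of the 12 neighbours tested 5 passed with the block, where 17.3% of all genes did. Over all settings the log2 difference of Fas was between 1.38 and 2.11. The difference of Casp9 ran from −0.12 (YAP siRNA replicate 3 left out) to 0.17 (YAP siRNA replicate 1 left out); it was −0.085 when control replicate 1 was left out and −0.046 in the blocked fit that lacks replicate 3, and no other member changed direction in the settings run. Fas rests on 29 reads in control replicate 1, which limits its precision there.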
